A study of Mus musculus with 18 samples.

Results

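The 9 genes described here encode hydroxysteroid dehydrogenases and a steroid reductase of mouse liver: Hsd3b2, Hsd3b3, Hsd3b5, Hsd11b1, Hsd17b2, Hsd17b6, Hsd17b11, Hsd17b13 and Srd5a1. They were taken by symbol, 9 of 31099 loci that carried a gene identifier in the count tables. Livers came from wild type mice (WT, Ppara+/+) and Ppara-null mice (KO, Ppara-/-), all 8 weeks old and of a C57BL/6 and SV129 mixed background. Mice of each genotype received for 48 h a normal diet (control), chow with 0.1% Wy14,643 (Wy) or chow with 0.5% fenofibrate, both agonists of the nuclear receptor PPARA. Each of the 6 groups of genotype and diet held 3 libraries of polyadenylated RNA, and each library was a mix of 3 to 5 livers. The null allele was carried in the whole animal, and the deposited labels do not state the sex of the mice. The comparisons ask how each gene responds to the agonists and whether the response needs the receptor.

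PPARA is a ligand-activated transcription factor of hepatocytes that switches on fatty acid oxidation and lipid storage genes during fasting or agonist exposure. Hydroxysteroid dehydrogenases are oxidoreductases that interconvert hydroxyl and keto groups on steroids, and so set how much active androgen, oestrogen or glucocorticoid a liver cell holds or clears. Several relatives act mainly on other lipids or sit on the surface of lipid droplets, and in rodent liver a number of these genes also differ between males and females under the control of growth hormone.

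Total counts per library, in units of 1e6 reads, were 68.9 to 151, and 31.8 to 44.5 without the 25 loci of major urinary proteins (Mup). The Mup share of counts was 69.2% to 73.5% in WT control, 50.9% to 56.2% in WT Wy, 48.8% to 59.2% in WT fenofibrate and 60.0% to 76.6% over the 9 KO libraries. Levels are given as CPM, read counts scaled to a library of 1e6 reads, on library sizes scaled by the trimmed mean of M-values (TMM), and changes are log2 fold changes with their SE from edgeR's quasi-likelihood test. A gene was called at a Benjamini-Hochberg adjusted p under 0.05 over 14241 tested genes. Each change is therefore relative to the typical gene: on library totals alone the median gene of WT moved by 0.79 with Wy and by 0.82 with fenofibrate (log2). The corresponding shifts in KO were -0.33 and 0.05, and KO control against WT control shifted by 0.32. Ppara itself, the check of the genotype, averaged 59.0 ± 7.88 CPM in WT control and 15.2 ± 2.61 CPM in KO control (SD, n = 3 each), a log2 difference of -1.96 ± 0.19 (adjusted p = 7.3e-07). Its reads did not vanish in KO, where 1134 to 2328 counts were listed per library. Hepatocyte markers were present for 9 of 9 genes. The female-specific transcript Xist had 321 counts in WT Wy replicate 3 and 1 to 7 in the other 17 libraries, while the Y-linked Ddx3y had 1210 to 1877 in all 18. The results below were also computed without that library.

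Of the 9 genes, 7 had counts in all 18 libraries and passed the filter on low counts. Hsd11b1 and Srd5a1 had 0 counts everywhere and are treated separately at the end. In WT liver, 1 of the 7 measured genes rose and 5 fell with Wy, where 39.2% of all tested genes were called, 20.2% higher and 19% lower. With fenofibrate 1 rose and 4 fell, where 36.9% of all genes were called, 19.3% higher and 17.6% lower. The single rise was Hsd17b11 in each case. In KO liver edgeR called 0 of the 7 with Wy, where 0.239% of all genes were called; 2 had an unadjusted p under 0.05 and DESeq2 called 1. With fenofibrate in KO 1 gene, Hsd3b3, was called lower, where 1.54% of all genes were called, 0.997% higher and 0.548% lower, and DESeq2 called 2 of the 7. The median log2 change over the 7 was -0.61 with Wy and -0.66 with fenofibrate in WT, beside -0.02 and 0.01 over all genes. The genes were chosen with earlier results of these data known. These counts and medians describe them and are not a test against all genes.

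**Figure D1:**
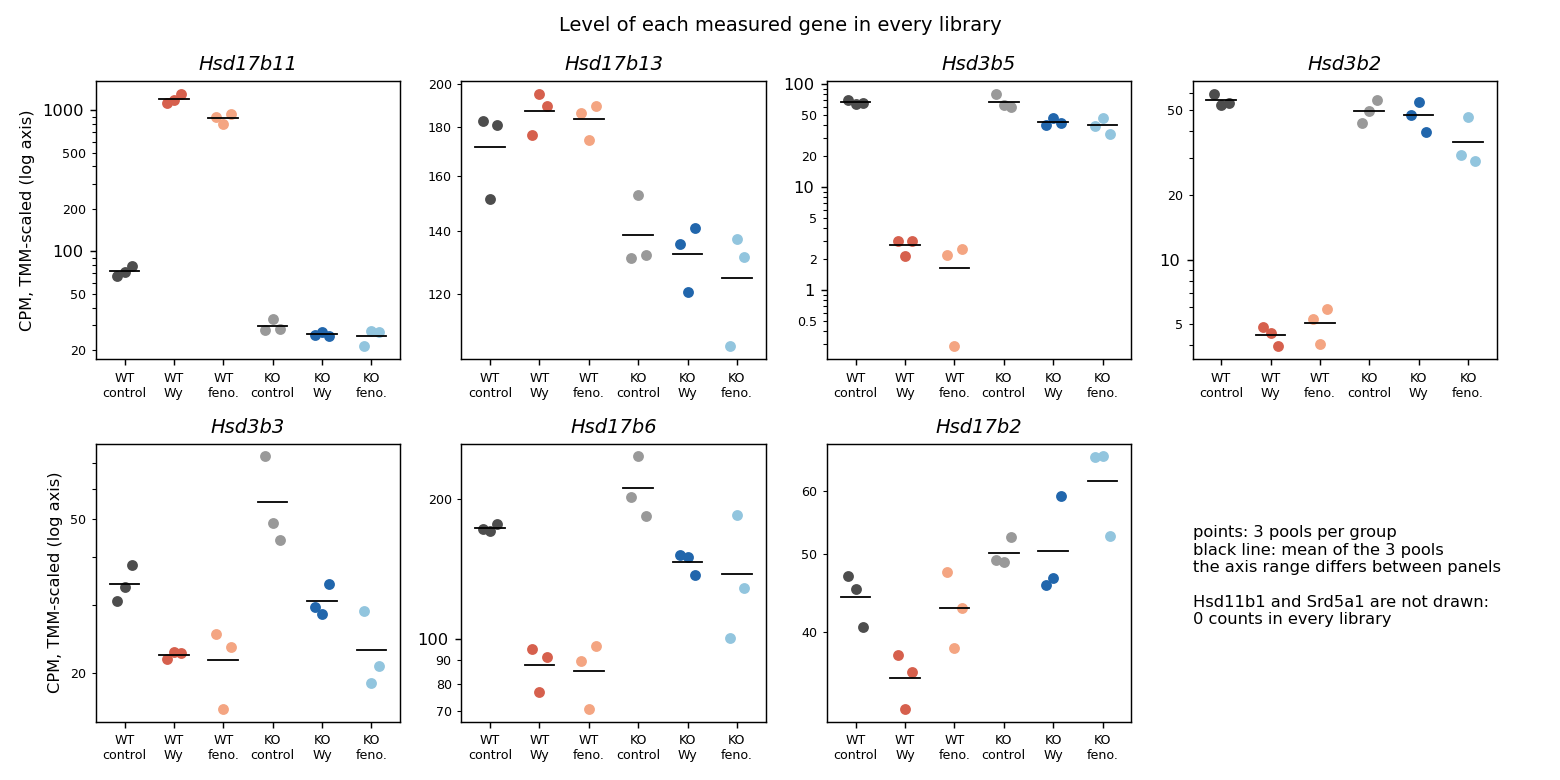
Level of the 7 measured genes in each library, in CPM on a log axis, by group of genotype and diet; points are the 3 pools of a group and lines their means. Hsd17b11 stands at 806 CPM or more in the 6 WT libraries on an agonist and below 80 CPM in the other 12, while Hsd3b5 and Hsd3b2 stand below 6 CPM in those 6 libraries and above 28 CPM in the other 12.

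The sequences below, in 3 sets, show what is alike and unlike among the genes the results turn on. The first is the promoter pair of Hsd17b11 and Hsd17b13, neighbours on chromosome 5 that responded differently. Windows run from 250 bases before to 50 bases after the RefSeq transcript start (GRCm38.p6), written in the direction of transcription, at chr5:104021747-104022046 for Hsd17b11 and chr5:103977339-103977638 for Hsd17b13, both on the minus strand. Capitals mark the hexamer AGGTCA, the core of nuclear receptor sites, here on the opposite strand.
Hsd17b11: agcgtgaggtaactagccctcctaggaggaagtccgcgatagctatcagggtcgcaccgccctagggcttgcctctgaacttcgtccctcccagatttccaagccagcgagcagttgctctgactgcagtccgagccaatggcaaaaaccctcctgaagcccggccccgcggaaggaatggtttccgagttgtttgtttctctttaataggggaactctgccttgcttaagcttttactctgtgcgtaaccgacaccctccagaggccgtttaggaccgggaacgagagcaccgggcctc
Hsd17b13: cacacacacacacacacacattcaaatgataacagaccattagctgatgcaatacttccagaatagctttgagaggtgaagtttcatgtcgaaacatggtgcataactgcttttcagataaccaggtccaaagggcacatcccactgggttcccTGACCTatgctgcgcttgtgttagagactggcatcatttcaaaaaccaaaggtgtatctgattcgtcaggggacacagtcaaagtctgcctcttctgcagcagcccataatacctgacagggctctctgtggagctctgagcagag
The second set is the promoter pair of Hsd3b3 and Hsd3b5 (minus strand, chr3:98763079-98763378 and chr3:98645485-98645784). In the Hsd3b5 line, capitals mark bases that differ from Hsd3b3 or have no partner in their best local alignment, which had 75.2% identity over 250 aligned positions.
Hsd3b3: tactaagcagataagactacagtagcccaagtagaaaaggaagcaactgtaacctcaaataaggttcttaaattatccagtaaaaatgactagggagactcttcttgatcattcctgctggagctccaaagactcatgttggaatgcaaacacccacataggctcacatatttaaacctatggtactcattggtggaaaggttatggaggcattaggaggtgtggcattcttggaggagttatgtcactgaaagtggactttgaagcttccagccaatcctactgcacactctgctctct
Hsd3b5: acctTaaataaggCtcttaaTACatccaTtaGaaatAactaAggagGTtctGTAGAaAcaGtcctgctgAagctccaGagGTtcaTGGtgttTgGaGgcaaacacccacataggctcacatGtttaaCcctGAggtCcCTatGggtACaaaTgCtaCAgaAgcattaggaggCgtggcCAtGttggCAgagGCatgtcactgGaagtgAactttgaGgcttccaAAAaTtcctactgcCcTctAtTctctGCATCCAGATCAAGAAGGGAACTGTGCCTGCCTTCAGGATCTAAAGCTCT
The window of Hsd3b2 (chr3:98724494-98724793, minus strand) aligned with that of Hsd3b3 at 50.2% identity and with that of Hsd3b5 at 51.9%.
Hsd3b2: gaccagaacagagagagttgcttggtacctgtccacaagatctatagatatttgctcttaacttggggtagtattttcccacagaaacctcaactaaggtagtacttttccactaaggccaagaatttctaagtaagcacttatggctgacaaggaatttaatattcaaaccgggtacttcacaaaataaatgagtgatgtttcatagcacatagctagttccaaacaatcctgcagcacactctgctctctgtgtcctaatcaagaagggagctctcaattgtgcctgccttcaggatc
The third set is the start of the Hsd3b coding sequences, 120 bases from the ATG (GENCODE M21, GRCm38, chromosome 3, minus strand). Capitals mark bases that differ from Hsd3b3.
Hsd3b3 coding: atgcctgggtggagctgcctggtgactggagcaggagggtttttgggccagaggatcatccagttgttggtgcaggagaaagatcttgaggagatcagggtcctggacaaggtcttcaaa
Hsd3b2 coding: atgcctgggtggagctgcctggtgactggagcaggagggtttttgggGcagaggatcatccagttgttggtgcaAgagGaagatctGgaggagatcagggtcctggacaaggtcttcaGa
Hsd3b5 coding: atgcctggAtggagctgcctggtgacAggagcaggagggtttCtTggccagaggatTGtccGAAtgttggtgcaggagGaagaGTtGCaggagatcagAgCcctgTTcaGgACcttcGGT
Hsd3b4 coding: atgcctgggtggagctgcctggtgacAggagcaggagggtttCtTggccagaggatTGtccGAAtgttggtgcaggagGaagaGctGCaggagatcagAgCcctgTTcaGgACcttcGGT

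RefSeq windows were found for 8 of the 9 genes, and Hsd17b2 had no entry. Hsd3b3 and Hsd17b6 each had a further window from another start, at chr3:98762361-98762660 and chr10:128007459-128007758. These were searched as well but not printed or aligned. The hexamer AGGTCA, searched on both strands, occurred in 16.3% of 32851 windows of the same length. Among the 8 genes it was found in Hsd17b13 alone, 96 bases before the start. The direct repeat with a single spacer bound by PPARA and its partner RXR was searched as a perfect repeat of that hexamer (0.0396% of windows). It was also searched as a repeat with any base at the fourth position of each copy (0.381%). No window of the 8 genes held either. The palindrome TTCNNNGAA, the core of sites for STAT proteins, was in 8.30% of windows and in no window of the 8 genes. These are letter matches in short windows and say nothing about binding elsewhere.

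Hsd17b11 encodes a short-chain dehydrogenase that oxidises androgen metabolites in vitro and is known as a protein of lipid droplets. Its locus lies at chr5:103989762-104021941 (mm10, minus strand, 7 exons). Levels in the 3 WT control pools were 67.0, 71.1 and 79.4 CPM. They were 1131, 1180 and 1312 CPM with Wy, and 892, 806 and 940 CPM with fenofibrate. All 6 agonist libraries lay above all 3 controls, and the Wy libraries above the fenofibrate libraries. Wy raised Hsd17b11 by 4.06 ± 0.12 on the log2 scale, 16.7-fold (adjusted p = 2.2e-14). Fenofibrate raised it by 3.60 ± 0.12, 12.1-fold (adjusted p = 6.8e-14).

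In KO liver the gene started lower and stayed there. KO control pools had 27.7, 32.99 and 28.2 CPM, all below the WT control pools, a log2 difference of -1.29 ± 0.11 (adjusted p = 1.5e-07) in a comparison where 9.94% of all genes were called, 4.28% higher and 5.66% lower. KO Wy pools had 25.7, 26.8 and 25.1 CPM and KO fenofibrate pools 21.3, 27.4 and 27.04 CPM. These libraries lay just below the KO controls, with log2 changes of -0.20 ± 0.11 (adjusted p = 0.41) and -0.23 ± 0.11 (adjusted p = 0.31). The response differed between genotypes by -4.25 ± 0.16 for Wy (adjusted p = 2.1e-12) and by -3.83 ± 0.16 for fenofibrate (adjusted p = 8.9e-12).

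Hsd17b13 encodes another lipid droplet dehydrogenase, abundant in hepatocytes and known in humans for variants tied to chronic liver disease. It lies at chr5:103955440-103977410 (minus strand, 8 exons), 12351 bases from Hsd17b11. Levels averaged 172 ± 17.8 CPM in WT control, 187 ± 9.63 CPM with Wy and 184 ± 7.87 CPM with fenofibrate (SD, n = 3 each). The libraries of these groups overlapped, with log2 changes of 0.12 ± 0.11 (95% interval -0.10 to 0.35, adjusted p = 0.37) and 0.10 ± 0.11 (95% interval -0.12 to 0.32, adjusted p = 0.50). On library totals the same changes were 0.94 and 0.91 and were called, close to the shift of the median gene. KO groups averaged 139 ± 12.3, 132 ± 10.5 and 125 ± 16.8 CPM on control, Wy and fenofibrate diets. KO control was lower than WT control by -0.31 ± 0.11 (log2) without passing the threshold (adjusted p = 0.077). That p was 0.040 without WT control replicate 2 and 0.039 without KO fenofibrate replicate 1.

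Levels were also scaled by the length listed for each locus with the deposited counts, 4364 bases for Hsd17b11 and 5719 for Hsd17b13. Per kilobase of that length, Hsd17b11 was 0.557 ± 0.0702 times Hsd17b13 in WT control (SD, n = 3). This ratio was 8.46 ± 0.586 with Wy and 6.27 ± 0.225 with fenofibrate. In KO it stayed between 0.234 and 0.291 in all 9 libraries. The order of the neighbours was thus reversed in WT liver on an agonist alone among the 6 groups.

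The Hsd3b genes encode enzymes of the steroid nucleus that lie in a cluster on chromosome 3. Hsd3b2 and Hsd3b3 belong to the dehydrogenase and isomerase forms that make keto-steroids, and Hsd3b5 and Hsd3b4 to a mouse branch that works as a keto-steroid reductase. Hsd3b5 is the form of male liver and Hsd3b4 is known from kidney. Coding identity followed this division: Hsd3b2 and Hsd3b3 shared 95.1% of 1119 coding bases, Hsd3b4 and Hsd3b5 95.2%, and Hsd3b3 and Hsd3b5 80.0%. In the printed stretch Hsd3b2 had 5 differences from Hsd3b3 and Hsd3b5 had 24. Reads from near-identical stretches may be placed on either copy, and no source used here states how the counting treated them. Of all 50-base windows in the transcripts, 11.9% of Hsd3b2, 24.8% of Hsd3b3 and 18.7% of Hsd3b5 occurred unchanged in another of the 6 cluster genes.

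**Figure D2:**
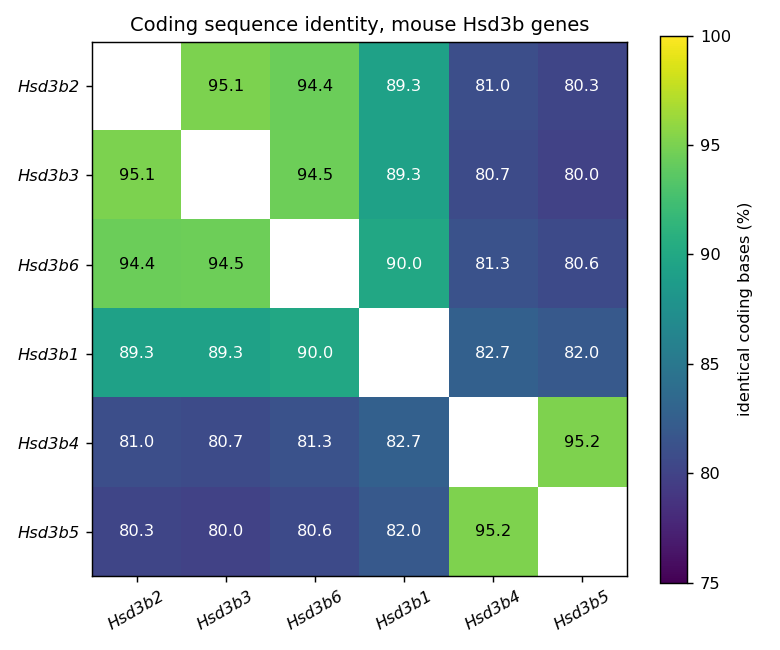
Percent of identical bases between the coding sequences of 6 mouse Hsd3b genes (GENCODE M21), coloured from 75% to 100%. Hsd3b4 and Hsd3b5 share 95.2% of bases with each other and 79.98% to 82.7% with the other 4 genes.

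Hsd3b5 (chr3:98618636-98645534, minus strand, 4 exons) fell furthest of the 7 measured genes. WT control pools had 70.1, 63.5 and 65.8 CPM. WT Wy pools had 3.00, 2.14 and 2.97 CPM, and WT fenofibrate pools 2.16, 0.283 and 2.47 CPM, from 27 counts in the lowest library to 383 in the highest. The agonist groups lay far below the controls without overlap, and WT fenofibrate replicate 2 stood apart from its group. The log2 change was -4.61 ± 0.41 with Wy (24.5-fold lower, adjusted p = 4.2e-08) and -5.32 ± 0.42 with fenofibrate (40.0-fold lower, adjusted p = 1.2e-08). Without WT fenofibrate replicate 2 the fenofibrate change was -4.81. Wy and fenofibrate did not differ past the threshold in WT (0.71 ± 0.38, 95% interval -0.10 to 1.52, adjusted p = 0.46).

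KO control pools of Hsd3b5 had 80.4, 61.8 and 59.1 CPM, within reach of WT control (log2 difference 0.01 ± 0.34, adjusted p = 0.99). KO Wy pools had 39.9, 46.6 and 41.7 CPM and KO fenofibrate pools 39.5, 46.6 and 32.7 CPM, all below the KO controls. Their log2 changes of -0.65 ± 0.34 (adjusted p = 0.40) and -0.76 ± 0.35 (adjusted p = 0.30) were not called. Without WT fenofibrate replicate 2 the adjusted p of KO fenofibrate was 0.012 at a change of -0.76. With only the KO control and KO Wy groups in the fit, the adjusted p of KO Wy was 0.049. The fall was smaller in KO than in WT by 3.96 ± 0.51 for Wy (adjusted p = 1.3e-05) and 4.56 ± 0.52 for fenofibrate (adjusted p = 4.0e-06).

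Hsd3b2 (chr3:98709255-98724592, minus strand, 6 exons) fell in the same WT groups. WT control pools had 59.6, 52.7 and 53.9 CPM, WT Wy pools 4.88, 4.55 and 3.94 CPM, and WT fenofibrate pools 5.29, 4.04 and 5.89 CPM. No agonist library came near a control. The log2 change was -3.64 ± 0.19 with Wy (12.4-fold lower, adjusted p = 2.8e-11) and -3.45 ± 0.19 with fenofibrate (10.9-fold lower, adjusted p = 6.0e-11). KO groups averaged 49.6 ± 6.22 CPM on the control diet, 47.3 ± 7.56 CPM with Wy and 35.4 ± 9.69 CPM with fenofibrate, with overlapping libraries. The KO changes of -0.07 ± 0.17 (adjusted p = 0.88) and -0.49 ± 0.17 (adjusted p = 0.16) were not called, but without KO fenofibrate replicate 2, at 46.6 CPM, the latter was -0.74 (adjusted p = 0.017). The genotype difference in response was 3.57 ± 0.25 for Wy (adjusted p = 4.8e-09) and 2.96 ± 0.24 for fenofibrate (adjusted p = 6.6e-08).

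Hsd3b3 (chr3:98741476-98763128, minus strand, 7 exons), 95.1% identical to Hsd3b2 in its coding sequence, changed far less in WT. WT control pools had 30.7, 33.3 and 38.1 CPM, WT Wy pools 21.7, 22.7 and 22.5 CPM, and WT fenofibrate pools 25.2, 16.1 and 23.3 CPM. Both agonist groups lay below all controls and overlapped each other, and the log2 changes against control were -0.61 ± 0.19 (adjusted p = 0.014) and -0.66 ± 0.19 (adjusted p = 0.0094). These calls rested on few libraries: the adjusted p with Wy was 0.065 without WT control replicate 3 and 0.062 without WT Wy replicate 1, and the adjusted p with fenofibrate was 0.071 without WT fenofibrate replicate 2. On library totals the changes turned to 0.19 and 0.14 and were not called.

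Hsd3b3 was also the only measured gene that edgeR called in KO on an agonist, where DESeq2 added Hsd17b6 with fenofibrate. KO control pools had 72.8, 48.9 and 44.3 CPM, KO Wy pools 29.6, 28.5 and 33.996 CPM, and KO fenofibrate pools 28.9, 18.8 and 20.9 CPM. The agonist pools lay below all KO controls, of which replicate 1 was high. The log2 change was -1.27 ± 0.19 with fenofibrate (adjusted p = 0.0018) and -0.85 ± 0.19 with Wy (adjusted p = 0.058). With only the KO control and KO fenofibrate groups in the fit the fenofibrate p was 0.055, and the Wy p was 0.0013 by DESeq2 and between 0.033 and 0.248 with a library left out. It was under the threshold without WT fenofibrate replicate 2, KO control replicate 3 or any of the 3 KO fenofibrate replicates. The genotypes did not differ in response past the threshold, at -0.24 ± 0.26 for Wy (95% interval -0.79 to 0.31, adjusted p = 0.53) and -0.62 ± 0.26 for fenofibrate (95% interval -1.17 to -0.06, adjusted p = 0.10). The fenofibrate p was 0.024 without WT fenofibrate replicate 2 and 0.026 without KO fenofibrate replicate 1. KO control exceeded WT control by 0.70 ± 0.19 (adjusted p = 0.020), a call lost without KO control replicate 1 (0.45, adjusted p = 0.16), WT control replicate 1 (adjusted p = 0.086) or WT control replicate 2 (adjusted p = 0.069).

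**Figure D3:**
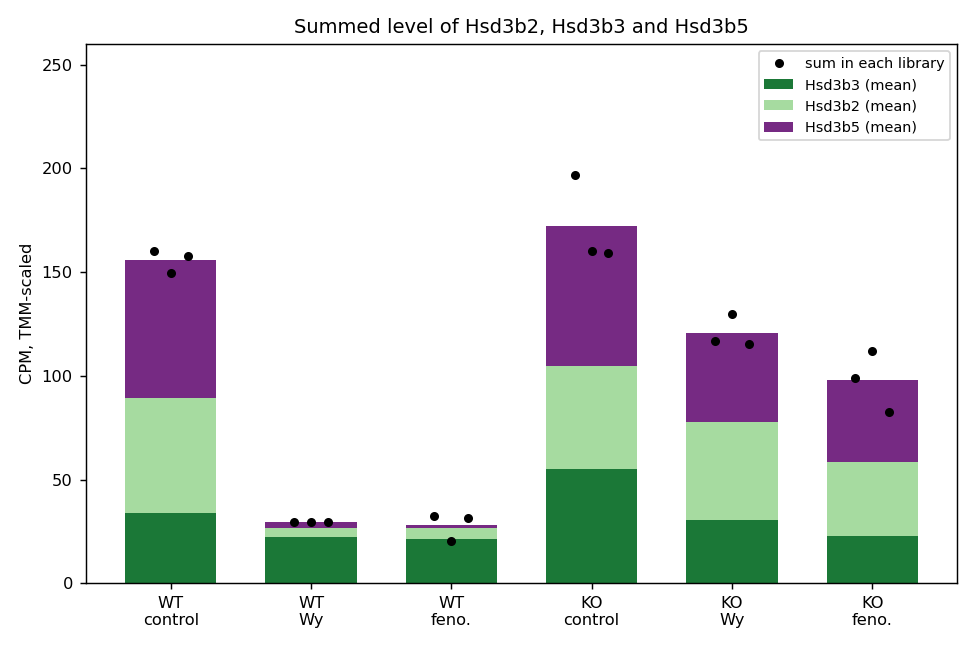
Stacked mean CPM of Hsd3b3, Hsd3b2 and Hsd3b5 by group, with the sum in each library as black points (3 per group). The sum is near 156 CPM in WT control and near 29 CPM in WT on either agonist, where Hsd3b3 makes up most of the bar.

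The 3 genes together summed to 156 ± 5.67 CPM in WT control, 29.5 ± 0.106 CPM in WT Wy and 28.3 ± 6.79 CPM in WT fenofibrate (SD, n = 3 each). Hsd3b3 made up 21.9 ± 2.52% of this sum in WT control, 75.7 ± 2.05% with Wy and 76.5 ± 2.69% with fenofibrate. In KO the sums were 172 ± 21.4, 121 ± 7.96 and 97.9 ± 14.8 CPM on control, Wy and fenofibrate diets, with Hsd3b3 at 31.8%, 25.6% and 23.8%. The other cluster genes were near the lower end of detection. Hsd3b4, the nearest relative of Hsd3b5, averaged 1.38 CPM in WT control (121 to 148 counts), 0.0508 CPM with Wy (3 to 10 counts) and 0.0289 CPM with fenofibrate (0 to 7 counts). Its fitted log2 changes were -4.70 ± 0.46 (adjusted p = 1.7e-07) and -5.43 ± 0.50 (adjusted p = 9.8e-08). Hsd3b6 averaged 0.869, 0.317 and 0.249 CPM in the same groups, with changes of -1.45 ± 0.51 (adjusted p = 0.030) and -1.78 ± 0.52 (adjusted p = 0.012). The Wy call of Hsd3b6 was lost without WT control replicate 2 or 3 or any of the 3 WT Wy libraries (adjusted p from 0.052 to 0.100) and on library totals (-0.65, adjusted p = 0.19). Its fenofibrate call was lost without WT fenofibrate replicate 2 (adjusted p = 0.057) and on library totals (-0.99, adjusted p = 0.058). Hsd3b1 had 24 to 67 counts in WT control and 0 to 3 on either agonist. Its Wy call was lost without WT control replicate 2 or any of the 3 WT Wy libraries (adjusted p from 0.051 to 0.080), and its fenofibrate call without WT control replicate 2 or WT fenofibrate replicate 1 or 3 (adjusted p from 0.053 to 0.072). In KO control replicate 1, where Hsd3b3 was high, Hsd3b6 had 365 counts and Hsd3b4 256, against 80 and 85 and against 116 and 92 in the other KO controls.

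Hsd17b6 encodes a hydroxysteroid dehydrogenase of the retinol dehydrogenase branch that acts on androstanediol in rodents. Its locus lies at chr10:127990936-128007604 (minus strand, 6 exons), and in WT control it had the highest level per kilobase of the 7 genes. WT control pools had 172, 170 and 176 CPM. WT Wy pools had 94.9, 76.7 and 91.3 CPM, and WT fenofibrate pools 89.4, 70.6 and 96.3 CPM, all well below the controls. The log2 change was -0.98 ± 0.17 with Wy (adjusted p = 1.5e-04) and -1.02 ± 0.17 with fenofibrate (adjusted p = 1.1e-04). On library totals these were -0.18 and -0.20 and were not called.

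KO control pools of Hsd17b6 had 202, 246 and 184 CPM. KO Wy pools averaged 146 ± 8.07 CPM, below all KO controls, and KO fenofibrate pools had 100, 184 and 128 CPM, reaching into the control range. The changes of -0.53 ± 0.17 (adjusted p = 0.17) and -0.61 ± 0.17 (adjusted p = 0.078) were not called, though without KO fenofibrate replicate 2, at 184 CPM, the latter was -0.88 (adjusted p = 0.0051), and DESeq2 gave 0.013 for all libraries. The response did not differ between genotypes past the threshold, at 0.45 ± 0.24 for Wy (95% interval -0.05 to 0.95, adjusted p = 0.17) and 0.40 ± 0.24 for fenofibrate (95% interval -0.10 to 0.90, adjusted p = 0.25). With only the 4 groups of the Wy comparison in the fit that p was 0.033.

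Hsd17b2 encodes an oxidative enzyme that inactivates oestradiol and testosterone (chr8:117700982-117759030, plus strand, 6 exons). WT control pools had 47.0, 45.3 and 40.6 CPM, WT Wy pools 37.4, 32.1 and 35.7 CPM, and WT fenofibrate pools 47.6, 38.2 and 42.9 CPM. Wy libraries lay below the controls, while the fenofibrate libraries spread from below the lowest control to above the highest. The change with Wy was -0.34 ± 0.12 (adjusted p = 0.026) and that with fenofibrate -0.05 ± 0.12 (adjusted p = 0.79). The Wy call was lost without WT control replicate 1 (adjusted p = 0.092), WT control replicate 2 (adjusted p = 0.073), WT Wy replicate 1 (adjusted p = 0.058), WT Wy replicate 2 (adjusted p = 0.19) or WT Wy replicate 3 (adjusted p = 0.088). It was also lost without the Mup loci (-0.30, adjusted p = 0.051) and with no filter on low counts (-0.29, adjusted p = 0.077). On library totals the value turned to 0.47 (adjusted p = 0.0025). KO groups averaged 50.2 ± 2.02 CPM on the control diet, 50.5 ± 7.44 CPM with Wy and 61.7 ± 7.80 CPM with fenofibrate, with no call (0.01 ± 0.12, adjusted p = 0.98, and 0.30 ± 0.12, adjusted p = 0.21). The genotype difference in the fenofibrate response was 0.34 ± 0.16 (adjusted p = 0.14), and 0.45 without KO fenofibrate replicate 3 (adjusted p = 0.046).

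**Figure D4:**
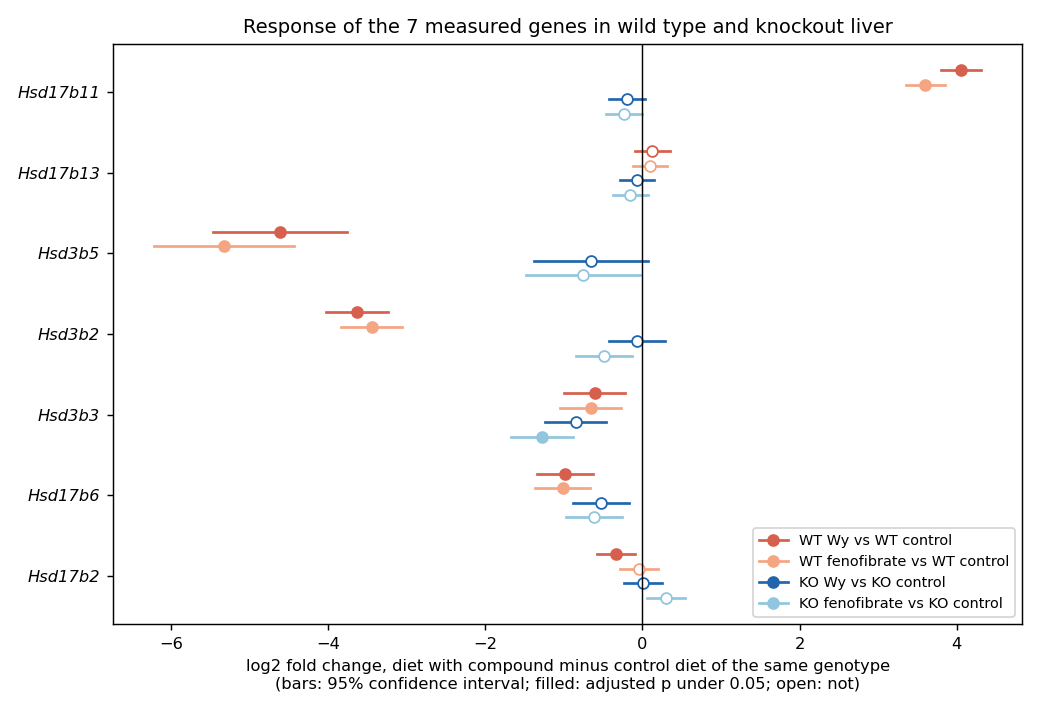
Log2 fold change of the 7 measured genes on each agonist diet against the control diet of the same genotype, with 95% confidence intervals; filled points passed the adjusted threshold of 0.05. Hsd17b11 lies at 4.06 and 3.60 in WT and Hsd3b5 at -4.61 and -5.32, while in KO all points lie between -1.27 and 0.30 and 1 of them, Hsd3b3 with fenofibrate, is filled.

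The genotype by diet difference was called for 3 of the 7 genes with Wy, where 28.1% of all genes were called, 14.0% higher and 14.1% lower. With fenofibrate the same 3 were called, where 22.3% of all genes were, 10.7% higher and 11.6% lower. They were Hsd17b11, lower, and Hsd3b5 and Hsd3b2, higher. Between control groups, 2 of 7 were called, Hsd3b3 higher and Hsd17b11 lower in KO, beside 9.94% of all genes, 4.28% higher and 5.66% lower. Wy and fenofibrate were compared at their own doses of 0.1% and 0.5%, so dose and compound cannot be told apart. In WT, 1 of 7 was called between them, where 0.899% of all genes were, 0.323% higher with Wy: Hsd17b11 was 1.37-fold higher with Wy (0.46 ± 0.11, 95% interval 0.23 to 0.68, adjusted p = 0.049). That call was lost on leaving out each of the 9 WT libraries in turn, with p up to 0.241 without WT Wy replicate 3, and p was 0.063 with only the 2 groups in the fit. It was also lost on leaving out each of the KO control and KO Wy libraries in turn. In KO, edgeR called 0 of 7 between the compounds, where 2.89% of all genes were called, 1.30% higher and 1.59% lower with Wy; 3 had an unadjusted p under 0.05 and DESeq2 called 0. Hsd3b2 passed without KO fenofibrate replicate 2 (0.66, adjusted p = 0.035).

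Levels per kilobase of the length listed for each locus with the deposited counts gave the order of the genes within each group. That length was 6658 bases for Hsd3b3, while its protein-coding GENCODE transcripts held 1710 distinct windows of 50 bases. For Hsd3b2 these values were 3744 and 3695. The low rank of Hsd3b3 below thus depends on the listed length, and the order on other lengths was not tested. In WT control Hsd17b6 stood first at 111 ± 2.02 CPM per kb, followed by Hsd3b5 at 39.9 ± 2.00. Hsd17b13 at 30.02 ± 3.11 and Hsd17b2 at 29.6 ± 2.22 overlapped, as did Hsd17b11 at 16.6 ± 1.45 and Hsd3b2 at 14.8 ± 0.983, and Hsd3b3 was last at 5.11 ± 0.562. In WT Wy Hsd17b11 led at 277 ± 21.5 CPM per kb, ahead of Hsd17b6 at 56.3 ± 6.20 and Hsd17b13 at 32.7 ± 1.68. Hsd17b2 followed at 23.4 ± 1.83 and Hsd3b3 at 3.35 ± 0.079. Hsd3b5 at 1.62 ± 0.292 and Hsd3b2 at 1.19 ± 0.127 overlapped at the bottom. In WT fenofibrate Hsd17b11 again led, at 202 ± 15.5 CPM per kb, and Hsd3b2 and Hsd3b5 were again last and overlapped. In the 3 KO groups Hsd17b6 led at 135 ± 20.8 on the control diet, 93.7 ± 5.18 with Wy and 88.4 ± 27.4 with fenofibrate. On the listed lengths Hsd17b11 and Hsd3b3 stood at the bottom of each KO group, between 3.44 and 8.31 CPM per kb on average.

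Hsd11b1, which regenerates active glucocorticoid, and Srd5a1, a reductase that turns testosterone into a stronger androgen, had 0 counts in all 18 libraries. No level or change can be given for them. Hsd11b1 lies at chr1:193221630-193264054 on the minus strand, wholly inside the span given for Lamb3 on the plus strand (chr1:193207699-193343878). Srd5a1 lies at chr13:69573449-69614901 on the minus strand, wholly inside the span of Nsun2 on the plus strand (chr13:69533746-69635780). Of 4807 identified loci inside another locus, 95.1% had 0 counts in every library, against 26.1% of the rest. These zeros were therefore taken as not measured rather than as absence of the transcript, and no upper limit was set from them. No source used here states how reads in the shared spans were counted.

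The enclosing loci did have counts. Lamb3, a laminin chain gene, had 120 to 160 counts in WT control and 5093 to 8677 in WT on an agonist. It averaged 1.46 ± 0.056 CPM in WT control, 70.4 ± 9.38 CPM with Wy and 49.98 ± 5.17 CPM with fenofibrate, and 1.73 to 2.04 CPM in the KO groups. The WT changes were 5.59 ± 0.17 (adjusted p = 2.4e-14) and 5.10 ± 0.17 (adjusted p = 6.8e-14). Nsun2, an RNA methyltransferase gene, averaged 40.5 ± 1.04, 39.4 ± 0.80 and 38.6 ± 2.95 CPM in the 3 WT groups and was not called (-0.04 and -0.07 on the log2 scale, adjusted p = 0.71 and 0.50). Whether reads of Hsd11b1 or Srd5a1 contribute to these loci was not tested.

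The wider families were described with lists chosen alongside the 9 genes. Of 16 other hydroxysteroid dehydrogenases 13 were tested, and in WT 5 rose and 3 fell with Wy, and 6 rose and 3 fell with fenofibrate. That is beside 39.2% of all genes called with Wy and 36.9% with fenofibrate, the shares against which the WT counts of each list that follows are also set. The KO counts of each list are set against 0.239% of all genes called with Wy and 1.54% with fenofibrate. The median log2 change was 0.05 and 0.43, and that of all genes -0.02 and 0.01. Hsdl2, a peroxisomal relative, went from 25.04 ± 1.72 CPM in WT control to 170 ± 7.11 CPM with Wy and 163 ± 3.04 CPM with fenofibrate, with changes of 2.76 ± 0.09 (adjusted p = 6.4e-14) and 2.70 ± 0.09 (adjusted p = 8.6e-14). Hsd17b4, the multifunctional enzyme of peroxisomal beta-oxidation, rose by 1.47 ± 0.08 and 1.36 ± 0.08 (adjusted p = 4.6e-11 and 1.6e-10). Hsd17b12, a reductase of fatty acid elongation, rose by 1.88 ± 0.10 and 1.61 ± 0.10 (adjusted p = 7.0e-11 and 7.1e-10). The 3 called lower were Hsd3b1, Hsd3b4 and Hsd3b6 of the chromosome 3 cluster, of which the calls of Hsd3b1 and Hsd3b6 were lost without single libraries as given above. In KO edgeR called 0 of the 13 with Wy (5 at an unadjusted p under 0.05, 1 by DESeq2) and 1, Hsd3b4, was lower with fenofibrate (-1.36 ± 0.33, adjusted p = 0.049).

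Of 11 other steroid reductases 10 were tested, and 2 rose and 5 fell with Wy and 2 rose and 4 fell with fenofibrate in WT, with medians of -0.67 and -0.38. In KO edgeR called 0 of the 10 with either agonist, with 4 at an unadjusted p under 0.05 in each case and 0 and 1 by DESeq2. Akr1d1, the steroid reductase of bile acid synthesis, went from 54.2 ± 3.09 CPM in WT control to 4.38 ± 0.252 CPM with Wy and 5.79 ± 1.35 CPM with fenofibrate. Its changes of -3.63 ± 0.16 (adjusted p = 3.6e-12) and -3.23 ± 0.16 (adjusted p = 1.6e-11) were close in size to those of Hsd3b2. The aldo-keto reductases Akr1c14 (-1.61 ± 0.10 and -1.30 ± 0.10, adjusted p = 3.9e-10 and 8.3e-09) and Akr1c6 (-1.30 ± 0.12 and -1.10 ± 0.12, adjusted p = 8.3e-08 and 7.2e-07) also fell. Akr1c19 fell with Wy (-0.95 ± 0.14, adjusted p = 3.8e-05) and had a value of -0.20 ± 0.14 with fenofibrate (adjusted p = 0.29). On library totals the Wy call of Akr1c19 was lost (-0.14, adjusted p = 0.47), its fenofibrate value turned to 0.60 (adjusted p = 0.0039), and the fenofibrate call of Akr1c6 was lost (-0.29, adjusted p = 0.094). Members of the Akr1c group resemble each other in sequence, and reads could be split among them.

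**Figure D5:**
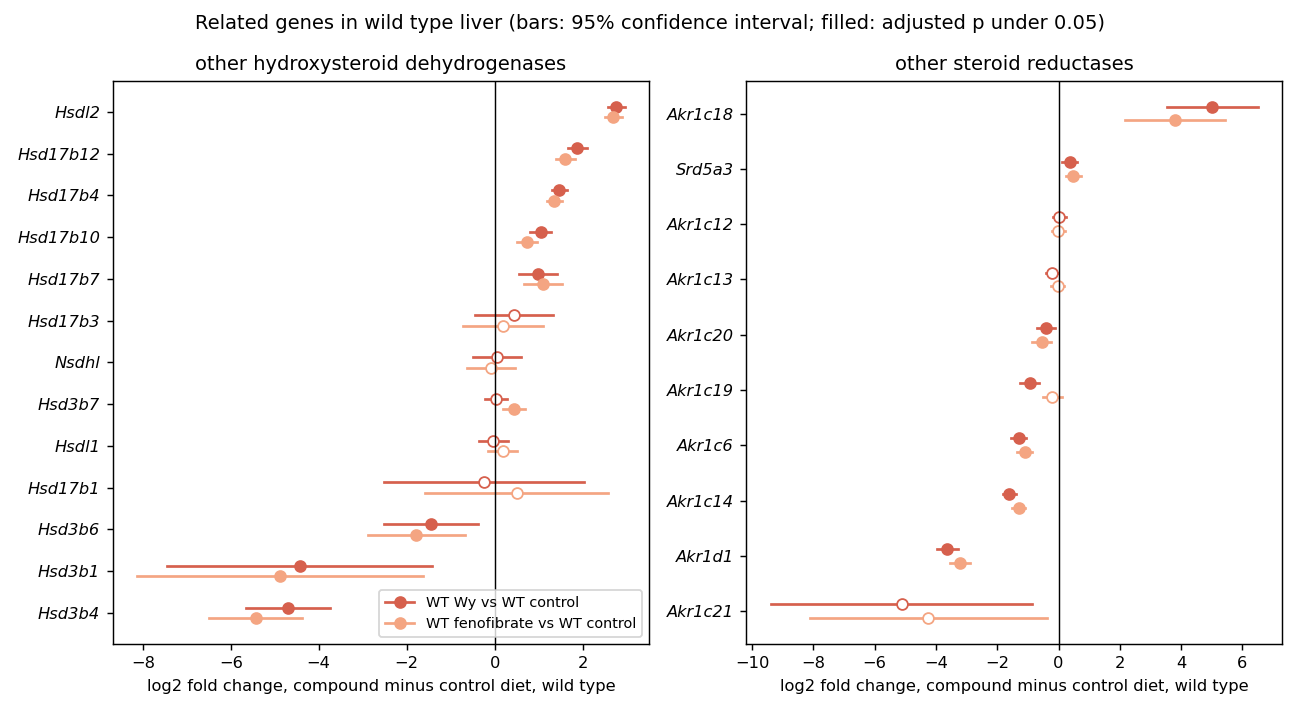
Log2 fold change in WT liver of 13 other hydroxysteroid dehydrogenases and 10 other steroid reductases, Wy in dark and fenofibrate in light points, with 95% confidence intervals; filled points passed the adjusted threshold of 0.05. Hsdl2, Hsd17b12 and Hsd17b4 lie to the right of 0 and Akr1d1 and Hsd3b4 well to the left, and the widest intervals are those of Akr1c21, Hsd3b1 and Hsd17b1.

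Retinol and related short-chain dehydrogenases, the branch nearest to Hsd17b6, gave 2 rises and 7 falls with Wy and 2 rises and 8 falls with fenofibrate among 17 tested, with medians of -0.47 and -0.43, where 39.2% and 36.9% of all genes were called. Rdh5 fell, with changes of -2.86 ± 0.13 and -2.50 ± 0.13 (adjusted p = 8.3e-12 and 4.5e-11), and so did Sdr9c7 at -2.27 ± 0.13 and -1.83 ± 0.12 (adjusted p = 6.2e-11 and 1.1e-09). The locus BC089597, known by another symbol as Rdh16f2, fell with changes of -2.14 ± 0.12 and -1.54 ± 0.12 (adjusted p = 9.6e-11 and 8.0e-09). Dhrs4, a peroxisomal retinal reductase, rose by 1.55 ± 0.10 and 1.39 ± 0.10 (adjusted p = 7.4e-10 and 3.9e-09). In KO edgeR called 0 of the 17 with Wy (3 at an unadjusted p under 0.05, 1 by DESeq2). With fenofibrate 2 were called lower, where 0.548% of all genes were. Among steroidogenesis and cofactor genes, 7 of 11 were tested, 2 rose and 1 fell with Wy, and 1 rose and 1 fell with fenofibrate. Por, which passes electrons to cytochromes P450, rose by 0.86 ± 0.09 and 0.49 ± 0.09 (adjusted p = 2.6e-07 and 1.8e-04). The electron carrier Fdx1 fell (-0.86 ± 0.12 and -1.00 ± 0.12, adjusted p = 1.8e-05 and 3.5e-06), but on library totals both calls were lost (-0.047, adjusted p = 0.79, and -0.18, adjusted p = 0.27). In KO 1 of the 7 was called higher with fenofibrate, where 0.997% of all genes were.

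Of 6 steroid receptors 4 were tested; 1 rose and 2 fell with Wy, and 0 rose and 1 fell with fenofibrate. Esr1, the oestrogen receptor, fell (-1.26 ± 0.20 and -1.23 ± 0.20, adjusted p = 6.9e-05 and 9.8e-05), and Nr3c1, the glucocorticoid receptor, was not called (-0.22 ± 0.11, adjusted p = 0.13, and -0.19 ± 0.11, adjusted p = 0.19). Among 11 glucocorticoid receptor targets 1 rose and 3 fell with Wy, and 0 rose and 4 fell with fenofibrate. Tsc22d3 was at -0.78 ± 0.16 and -1.25 ± 0.16 (adjusted p = 5.9e-04 and 5.1e-06), while Sgk1 rose with Wy (0.69 ± 0.16, adjusted p = 0.0020). Pck1 and Tat were also among the falls with each agonist. On library totals the calls of Pck1 were lost (-0.081, adjusted p = 0.70, and -0.010, adjusted p = 0.96), and Tat turned to 0.15 and 0.22. The Wy call of Tat was lost without WT Wy replicate 2 (adjusted p = 0.071). Its fenofibrate call was lost without WT fenofibrate replicate 1 or 3 (adjusted p = 0.059 and 0.057). Of 13 male-biased liver genes 3 rose and 8 fell with Wy and 3 rose and 9 fell with fenofibrate, with medians of -1.12 and -1.00. On library totals the calls of Esr1 were lost (-0.45, adjusted p = 0.099, and -0.40, adjusted p = 0.13), Tsc22d3 turned to 0.021 with Wy and was not called with fenofibrate (-0.43, adjusted p = 0.099), and Nr3c1 turned to 0.58 and 0.62. Cyp7b1, an oxysterol hydroxylase, fell (-1.80 ± 0.20 and -2.06 ± 0.20, adjusted p = 1.1e-06 and 2.3e-07), and the transporter gene Slco1a1 did too (-1.59 ± 0.18 and -1.78 ± 0.19, adjusted p = 1.5e-06 and 4.1e-07), whereas Cyp4a12b rose by 1.52 ± 0.15 and 1.36 ± 0.15 (adjusted p = 2.8e-07 and 1.2e-06). Of 13 female-biased genes tested 3 rose and 6 fell with Wy, and 3 rose and 2 fell with fenofibrate, with medians of -0.26 and 0.16. Acot3 and Acot4 were among the rises with each agonist, and Cyp2c69 and Prlr among the falls. With 1 library left out, the Wy changes were 4.75 to 4.89 for Acot3 and 3.54 to 3.69 for Acot4. They were -3.35 to -2.85 for Cyp2c69 and -1.59 to -1.41 for Prlr. In KO edgeR called 0 of the 13 male-biased genes with either agonist; 2 with Wy and 6 with fenofibrate had an unadjusted p under 0.05, and DESeq2 called 0 and 3. Of the 13 female-biased genes edgeR called 0 with Wy in KO (0 at an unadjusted p under 0.05, 0 by DESeq2). With fenofibrate in KO 3 of them were called higher, where 0.997% of all genes were. Between control groups, 4 of the 13 female-biased genes were called higher in KO, where 4.28% of all genes were. Of the 13 male-biased genes 3 were called lower in KO, where 5.66% of all genes were.

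Lipid droplet proteins, the company of Hsd17b11 and Hsd17b13, gave 8 rises and 1 fall with Wy and 7 rises and 2 falls with fenofibrate among 10 tested, with medians of 1.96 and 1.39. Cidec went from 0.550 ± 0.0352 CPM in WT control to 38.2 ± 3.11 CPM with Wy and 27.02 ± 3.94 CPM with fenofibrate, changes of 6.11 ± 0.18 (adjusted p = 2.2e-14) and 5.61 ± 0.18 (adjusted p = 6.0e-14). Plin2 rose by 3.21 ± 0.15 and 3.17 ± 0.15 (adjusted p = 7.1e-12 and 1.1e-11). In KO edgeR called 0 of the 10 with either agonist, with 3 at an unadjusted p under 0.05 and 2 called by DESeq2 in each case.

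The genes whose levels followed each member most closely over the 18 libraries were found by Pearson's r of log2 CPM among 5603 genes with a mean of at least 5 CPM. The libraries share groups and diets, so r here describes patterns over 6 groups. Hsd17b11 was followed most closely by Retsat (r = 0.998), Hadhb (0.998) and Hadha (0.998), and 400 genes had an r over 0.95 with it. For Hsd3b2 they were Sqrdl (0.989), F11 (0.989) and Pipox (0.988), among 182 genes over 0.95, and for Hsd3b5 Gamt (0.986), Hes6 (0.983) and F11 (0.982), among 141. Hsd17b6 was followed by Rdh7 (0.964), Proc (0.959) and Agmat (0.951), with 5 genes over 0.95. Rdh7 lies on the same chromosome, 101688 bases away, and fell in WT (-0.60 ± 0.10 and -0.72 ± 0.10, adjusted p = 6.7e-05 and 9.3e-06). Its direction turned on library totals, to 0.21 and 0.086. No gene had an r over 0.95 with the other 3. The nearest were Bst2 (0.912), Gch1 (0.911) and Ccl9 (0.901) for Hsd17b2, Mfsd2a (0.935), Timm9 (0.931) and Angptl4 (0.931) for Hsd17b13, and Arpc2 (0.798), Kiz (0.795) and Ykt6 (0.792) for Hsd3b3.

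Markers of other cell types moved with some of these groups. In bulk liver, fewer cells of a type and less RNA per cell cannot be told apart. Kupffer cell markers (9 of 9 with counts) summed to 72.0 to 79.0 CPM in WT control. They summed to 42.5 to 46.4 CPM in WT Wy and 41.0 to 53.3 CPM in WT fenofibrate. With each agonist 8 of 9 were called lower, at median log2 changes of -0.70 with Wy and -0.64 with fenofibrate. Of all genes 19% were called lower with Wy and 17.6% with fenofibrate. In KO the Kupffer markers summed to 84.6 to 94.2 CPM on the control diet. They summed to 106 to 130 CPM with Wy and 77.9 to 115 CPM with fenofibrate. The KO Wy libraries thus lay above the KO controls. With Wy in KO edgeR called 0 of the 9 (7 at an unadjusted p under 0.05, 1 by DESeq2), at a median log2 change of 0.38 against -0.70 in WT. The difference between genotypes with Wy was called for 8 of 9, where 28.1% of all genes were called, 14.0% higher. The median of the 9 differences was 1.09 (log2). On library totals the median gene of WT moved by 0.79 with Wy and by 0.82 with fenofibrate. These shifts are larger in size than the Kupffer medians in WT. The median gene moved by -0.33 with Wy in KO and by -1.11 in the genotype by Wy difference. Whether the calls of these and the following cell type markers hold on library totals was not tested. Stellate cell markers (7 of 8 with counts, Lrat at 0) summed to 69.6 to 80.7 CPM in WT control and 51.1 to 59.4 CPM over the 6 WT agonist libraries. The 9 hepatocyte markers summed to 46495 to 48218 CPM in WT control, 22111 to 26279 CPM in WT Wy and 20750 to 22031 CPM in WT fenofibrate. With each agonist 6 of 9 were called lower, 1 was called higher and 2 were not called. The median log2 changes were -0.87 with Wy and -1.05 with fenofibrate. Adrenal cortex and gonad markers, which would carry steroidogenic enzymes from another organ, summed to 3.34 to 6.44 CPM in WT control, 10.4 to 10.9 CPM in WT Wy, 4.88 to 10.04 CPM in WT fenofibrate and 6.71 to 41.0 CPM in KO, with Cyp11b1 at 0 in all libraries. Most of that sum was Cyp17a1, which averaged 3.92 CPM in WT control and 24.7 CPM in KO Wy. The part of these shifts in the values of the 7 genes was not tested.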

How the data were processed

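RNA sequencing counts of 18 mouse liver libraries, 6 groups of 3, were analysed. Per the labels' protocols each library was made from pooled livers with a stranded polyadenylated RNA kit. Per the submitters' processing notes the tools were bcl2fastq 2.17, Trimmomatic 0.30, TopHat2 2.0.8 and Picard 1.84, with the mm10 genome. How reads were assigned to loci, and whether strand was used, is stated in no source used here. The deposited values are whole-number counts per locus, not normalised by the authors, over 52463 loci per table. The 21364 loci without a gene identifier, 12 blank or total rows and 5 read columns of no sample were not used.

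Counts were fitted with edgeR 4.0.16 in R 4.3.3: filtering on low counts by group, TMM scaling, a single model of 6 groups with 12 residual degrees of freedom, quasi-likelihood tests and Benjamini-Hochberg adjustment over 14241 genes. The fitted fold changes used a prior count of 0.125, and the SE came from the F statistic. The script was tested on simulated data. Alternatives were DESeq2 1.42.0, other scalings and filters, a replicate block, fits of the compared groups alone and each library left out. Replicate numbers were not treated as pairs. Replicates are separate pools of livers. In the main fit each p-value sets a difference against the spread between pools, estimated over all 6 groups together.

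The members and gene lists were chosen with earlier results of these data known. Named list genes are those with the smallest adjusted p of each list, up to 4, shown in part; Hsd3b1, Hsd3b6, Rdh7, Lamb3 and Nsun2 were chosen after their values were seen. Total counts were 68.9 to 151 per library in units of 1e6 reads.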

Additional observations from a re-analysis of the deposited data

Results flagged for a closer look

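The response to the agonists differed between WT and KO livers for 3 of the measured genes by the test of the difference itself, edgeR's quasi-likelihood test of the interaction with Benjamini-Hochberg adjustment. For Hsd17b11 the KO response was lower than the WT response by a log2 value of -4.25 for Wy (adjusted p = 2.1e-12) and -3.83 for fenofibrate (adjusted p = 8.9e-12). For Hsd3b5 the KO response was less negative by 3.96 for Wy (adjusted p = 1.3e-05) and 4.56 for fenofibrate (adjusted p = 4.0e-06). For Hsd3b2 the corresponding values were 3.57 (adjusted p = 4.8e-09) and 2.96 (adjusted p = 6.6e-08). Groups of 3 are too small for a test of single outlying libraries.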

How the results depend on the processing

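Over the alternatives, the log2 changes of the members kept direction and side of the threshold in 1530 of the recomputed values, were no longer past it in 33, newly past it in 32 and turned in 43. Other named genes gave 2006, 35, 19 and 16. Scaling by library totals moved most counts of called genes: 10156 for WT Wy, 10396 for WT fenofibrate, 2980 for KO Wy, 95 for KO fenofibrate, 2731 for KO against WT control, 10063 and 7432 for the Wy and fenofibrate interactions, 47 for WT Wy against fenofibrate and 4071 for KO Wy against fenofibrate. Members called then numbered 5 for KO Wy, 4 for KO against WT control, 7 and 5 for the interactions, 0 for WT Wy against fenofibrate and 1 for KO Wy against fenofibrate. For KO Wy the genes called were 73 with no filter, 59 with at least 1 CPM, 288 by DESeq2 and 67 with only the groups compared, and the members 1 with no filter, 1 by DESeq2 and 1 with only the groups compared. KO fenofibrate gave 518 genes and 2 members by DESeq2, and 33 and 0 with only the groups compared. DESeq2 gave 300 genes for WT Wy against fenofibrate and 743 for KO Wy against fenofibrate, where the compared groups alone gave 0 members and 47 genes.

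Directions turned under library totals, and the cause was not tested: Hsd3b3 at 0.19 and 0.14 and Hsd17b2 at 0.47 and 0.76 in WT with Wy and fenofibrate; Hsd3b2 at 0.18 and Hsd17b13 at 0.019 for KO against WT control; Hsd17b2 at -0.84 and -0.43 and Hsd17b6 at -0.69 and -0.34 for the interactions; Hsd3b5 at -0.27, Hsd17b6 at -0.32, Hsd17b11 at -0.36 and Hsd17b13 at -0.33 for KO Wy against fenofibrate. Hsd17b2 in KO Wy was near 0 and turned to -0.36 there, -0.011 with RLE size factors, -0.00025 without Mup, -0.00034 with no filter, -0.011 by DESeq2 and -0.0012 with only the groups compared. Among other genes in WT, library totals gave Nr3c1 0.58 and 0.62, Tsc22d3 0.021, Tat 0.15 and 0.22, Rdh7 0.21 and 0.086, Akr1c19 0.60 and Nsun2 0.77 and 0.74, and Nsun2 with Wy was 0.00075 without Mup and 0.014 with no filter.

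With 1 library left out, genes called ranged from 4625 to 6055 for WT Wy, 4389 to 5680 for WT fenofibrate, 4 to 157 for KO Wy, 54 to 482 for KO fenofibrate, 979 to 1713 for KO against WT control, 3274 to 4545 and 2638 to 3299 for the interactions, 40 to 203 for WT Wy against fenofibrate and 206 to 730 for KO Wy against fenofibrate. Members called ranged in the same order from 4 to 6, 4 to 5, 0 to 1, 1 to 3, 1 to 3, 3 to 3, 3 to 4, 0 to 1 and 0 to 1. Values that crossed 0 were Nsun2 (-0.058 to 0.017 and -0.13 to 0.017), Hsd17b2 in WT fenofibrate (-0.13 to 0.062) and Nr3c2 (-0.0016 to 0.14). In KO Wy they were Hsd17b2 (-0.12 to 0.076), Hsd17b13 (-0.12 to 0.0082) and Hsd3b2 (-0.19 to 0.043). Others were Hsd3b5 for KO against WT control (-0.14 to 0.10) and Hsd3b3 for the Wy interaction (-0.38 to 0.0055). For WT Wy against fenofibrate they were Hsd17b6 (-0.076 to 0.15), Hsd3b3 (-0.11 to 0.18) and Hsd17b13 (-0.00040 to 0.080), and for KO Wy against fenofibrate Hsd17b6 (-0.10 to 0.34), Hsd17b11 (-0.070 to 0.091), Hsd17b13 (-0.020 to 0.15) and Hsd3b5 (-0.0095 to 0.24).

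The labels number the replicates of each group alike. Of 45 same-numbered pairs 20 had deviations correlated over 0.1, with a median r of -0.0208 against 0.00223 for other pairs, so the numbers were not taken as pairs. With the number as a replicate block, genes called were 5540, 5183, 38, 201, 1373, 3874, 3082, 109 and 372 in the order above, and members called were 6, 5, 0, 1, 2, 3, 3, 1 and 0, the same counts as without it. Hsd3b6, Hsd3b4 and Hsd3b1 rest on few counts, and intervals cover the spread between pools only.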

Other observations

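Markers of other tissues were also measured. Pancreas markers (3 of 5 with counts) summed to 6.97 to 7.61 CPM in WT control, 1.80 to 2.04 CPM in WT Wy and 1.87 to 2.54 CPM in WT fenofibrate. Cholangiocyte markers (5 of 5) summed to 11.3 to 11.96 CPM in WT control and 5.90 to 13.3 CPM over the WT agonist libraries. Erythroid markers (4 of 5) ranged from 128 to 548 CPM over all libraries, and lymphocyte markers (5 of 7) stayed at or below 0.589 CPM.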
